A study of Mus musculus with 8 samples.

Results

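Blockade of EP4 and blockade of PD-1 were compared directly, as single agents, in CT26 tumors, with the vehicle arrays kept out of the test. The members were the 2 arrays of tumors from mice given TP-16 (labelled BY001) and the 2 arrays of tumors from mice given anti-PD-1 antibody, which makes 4 of the 8 arrays of the study. CT26 is a colon carcinoma line of BALB/c mice, and 500000 cells were implanted under the skin of the flank of mice that the methods describe as female and 6 to 10 weeks old at purchase. Treatment began when tumors measured 100 to 200 mm3 and lasted 2 weeks in every group. TP-16 was given by mouth each day at 75 mg/kg, and the antibody was injected into the peritoneum at 50 µg per mouse, 2 doses a week. The other arrays came from tumors given vehicle or both agents, 2 arrays each, and they are used below as levels only. The design calls the 2 samples of a group independent biological replicates, but the labels do not say whether a sample was 1 tumor or a pool, so a p-value here measures the spread between samples. Whole tumor tissue was used, so fewer cells of a type and less RNA per cell cannot be told apart.

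EP4 is a receptor for prostaglandin E2 that couples to Gs, raises cAMP and activates the transcription factor CREB, and in tumors it acts on macrophages, neutrophils, dendritic cells and T cells. PD-1 is an inhibitory receptor of activated T cells, and an antibody against it releases signaling through the T-cell receptor and CD28. Cytotoxic T cells and NK cells kill with perforin, which opens membranes, and with granzymes, serine proteases stored in the same granules. The mouse has more granzyme genes than the human, and granzymes B to G and N lie side by side on chromosome 14 next to the chymases of mast cells and to cathepsin G.

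RNA of each sample was labelled with 1 dye and hybridised to an Agilent mouse array of 62976 spots, of which 59305 carried 56605 mouse probes. Signal was stronger on the TP-16 arrays (75th percentile 530.2 and 550.8) than on the anti-PD-1 arrays (398 and 414.9). Between 51.4% and 55.7% of the probes on these 4 arrays were well above background, and 0 spots were saturated. All arrays lay on 1 slide, the TP-16 arrays in row 1 (columns 3 and 4) and the anti-PD-1 arrays in row 2 (columns 1 and 2), so treatment and place on the slide cannot be told apart. Levels below are on the log2 scale, relative to the 75th percentile of each array, and they are compared between arrays for a probe, not between probes. Of 14 colon epithelium markers, 7 were below background in both groups, among them Epcam, Cdx2, Vil1 and Muc2. Krt20, a keratin of intestinal epithelium, was well above background on all 4 arrays (5.49 and 6.21 under TP-16, 5.71 and 6.52 under anti-PD-1).

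Among the genes that set the 2 treatments farthest apart were granzymes C to G, each at least 6.58-fold lower under TP-16 than under anti-PD-1. Lower under TP-16 were also granzyme B and perforin, the mast cell proteases Mcpt4 and Cma2, heme oxygenase 1 and the resistin-like gene Retnla, with the calls of Mcpt4 and Retnla lost under the methods' t-test. Higher under TP-16 were Clec9a, a receptor of type 1 dendritic cells, Btla and Tox, genes of restrained lymphocytes, the growth factor receptor Igf1r and the endosomal GTPase Rab5c. Of these, Clec9a, Btla and Tox lost their calls under normexp, under the methods' t-test and without 1 of the arrays. A probe was called when limma, fitted to 2 arrays per group, gave a fold of 2 or more and a p, before adjustment, of 0.05 or less, as in the methods. Every gene call below rests on this threshold, and the p-values printed beside genes are limma's after adjustment over all probes tested. Of 30421 probes tested, 480 (1.58%) were called, 92 (0.302%) higher and 388 (1.28%) lower under TP-16, so 19.2% of the calls were higher. By 1 probe per gene, 51 of 20509 genes (0.249%) were higher and 305 (1.49%) lower. At an adjusted p of at most 0.05, limma called 0 probes (0%), while 3350 probes (11%) had an unadjusted p of at most 0.05 at any fold, and the methods' t-test also gave 0 after adjustment. Other alternatives gave up to 19 probes after adjustment, such as 2 with quantile normalization, 12 with the authors' log2 values and 19 with the median subtracted. The smallest adjusted p was 0.0523, shared by 12 probes, all lower under TP-16. Of these, 5 were well above background on all 4 arrays (Gzmd, Gzme, Gzmf, Gzmg and Tmsb15a), and 7 only on the anti-PD-1 arrays.

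The split between directions moved with the scaling. After quantile normalization 246 of 540 called probes (45.6%) were higher under TP-16, and with the authors' log2 values 43.6% were. Of the 480 probes called under the main scaling, 376 were also called after quantile normalization and 181 with normexp background correction. The median difference over all tested probes was -0.029 on the log2 scale, and 0.038 after quantile normalization. Without TP-16 replicate 1 the count of called probes was 1361, and without anti-PD-1 replicate 1 the share higher was 40.3%. Across probes, which are not independent, the arrays correlated at 0.990 within TP-16, at 0.992 within anti-PD-1 and at 0.984 to 0.991 between the groups, so this measure did not set replicates of TP-16 apart from pairs across the groups.

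Granzyme G had levels of -0.75 and -1.09 under TP-16 and of 3.08 and 3.29 under anti-PD-1. Its difference was -4.10 (SE 0.17, 17.2-fold lower, adjusted p = 0.0523). On the other arrays its level was 1.95 and 3.67 (vehicle) and 3.02 and 2.66 (combination), so the TP-16 arrays lay below all 6 others and the anti-PD-1 arrays lay among them. Granzyme D stood at -1.30 and -1.37 under TP-16 against 2.63 and 2.77 under anti-PD-1, a difference of -4.03 (SE 0.11, 16.4-fold lower, adjusted p = 0.0523). Granzyme F stood at -0.11 and -0.19 against 3.74 and 4.02, a difference of -4.03 (SE 0.14, 16.3-fold lower, adjusted p = 0.0523). Granzyme E stood at 1.90 and 1.95 against 5.59 and 5.81, a difference of -3.78 (SE 0.13, 13.7-fold lower, adjusted p = 0.0523). In granzymes D, E and F, too, both TP-16 arrays were the lowest of the 8, with the groups far apart relative to the distance between replicates. Granzyme C stood at 1.95 and 2.23 against 4.78 and 4.83, a difference of -2.72 (SE 0.14, 6.58-fold lower, adjusted p = 0.0696). Its level was 4.11 and 5.17 on the vehicle arrays and 4.49 and 4.11 on the combination arrays, again above both TP-16 arrays. Granzymes C to G were called in each of the 18 alternatives, including each array left out, with differences between -4.27 and -2.58.

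The granzyme cluster was then followed along the chromosome, a stretch chosen after the values of its genes were seen. From Cma1 to Gzmb (mm9 chr14:56560454-56877975, 318 kb) 15 genes or transcripts were tested, of which 12 were called lower under TP-16, 0 were called higher and 15 had a negative difference, beside 1.49% of all genes called lower. With normexp background correction, 3 of the 12 (Cma2, Mcpt2 and Mcpt4) were short of a fold of 2. Both TP-16 arrays lay below all 6 other arrays in 8 of them, in order along the chromosome Mcpt8, Ctsg, Gzme, Gzmd, Gzmg, Gzmn, Gzmf and Gzmc, beside 724 of the 20509 genes tested. Ctsg, the neutrophil granule protease cathepsin G, stood at -0.86 and -0.54 under TP-16 against 1.82 and 1.85 under anti-PD-1, a difference of -2.53 (SE 0.15, adjusted p = 0.111). Its vehicle levels were 0.25 and 2.14 and its combination levels 1.71 and 1.28. Mcpt8, a protease of basophils, was lower by a difference of -1.81 (SE 0.17, adjusted p = 0.293). Gzmn was below background on both TP-16 arrays and at -3.04 and -3.62 under anti-PD-1, which makes it at least 2.65-fold lower. It passed the filter through the anti-PD-1 arrays alone, which favors a call, and it is counted among the 12 and the 8.

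At both ends of the stretch the vehicle arrays stood differently. Granzyme B, the main effector protease of cytotoxic T cells, stood at 2.93 and 2.94 under TP-16 and 4.21 and 4.07 under anti-PD-1, a difference of -1.20 (SE 0.11, 2.3-fold lower, adjusted p = 0.285). The vehicle arrays, at 2.17 and 3.70, enclosed its TP-16 levels, and the combination arrays, at 4.37 and 4.78, were the highest. The mast cell chymase Mcpt4 stood at 2.42 and 2.84 against 3.52 and 3.80, a difference of -1.03 (SE 0.20, adjusted p = 0.419). Its vehicle levels of 2.15 and 2.71 lay beside those of TP-16, and its combination levels of 3.76 and 3.92 beside those of anti-PD-1. Without TP-16 replicate 1 the difference of Mcpt4 was -0.82, and without anti-PD-1 replicate 2 it was -0.90, both short of a fold of 2, and its call was also lost under normexp and under the methods' t-test. The chymase-like genes Cma2 (difference -1.03) and Mcpt2 (-1.24, above background on 1 TP-16 array) were also called. With normexp they differed by -0.98 and -0.69, and Mcpt2 by -0.99 after quantile normalization, all short of a fold of 2. Cma1 had a difference of -0.95 at 1.93-fold, just short of the fold required. Between 12 probes of the cluster (66 pairs), the best match at any shift without gaps was 18 to 27 of 60 bases. Matches with gaps, and binding of a probe to the transcript of a neighbor, were not tested.

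**Figure D1:**
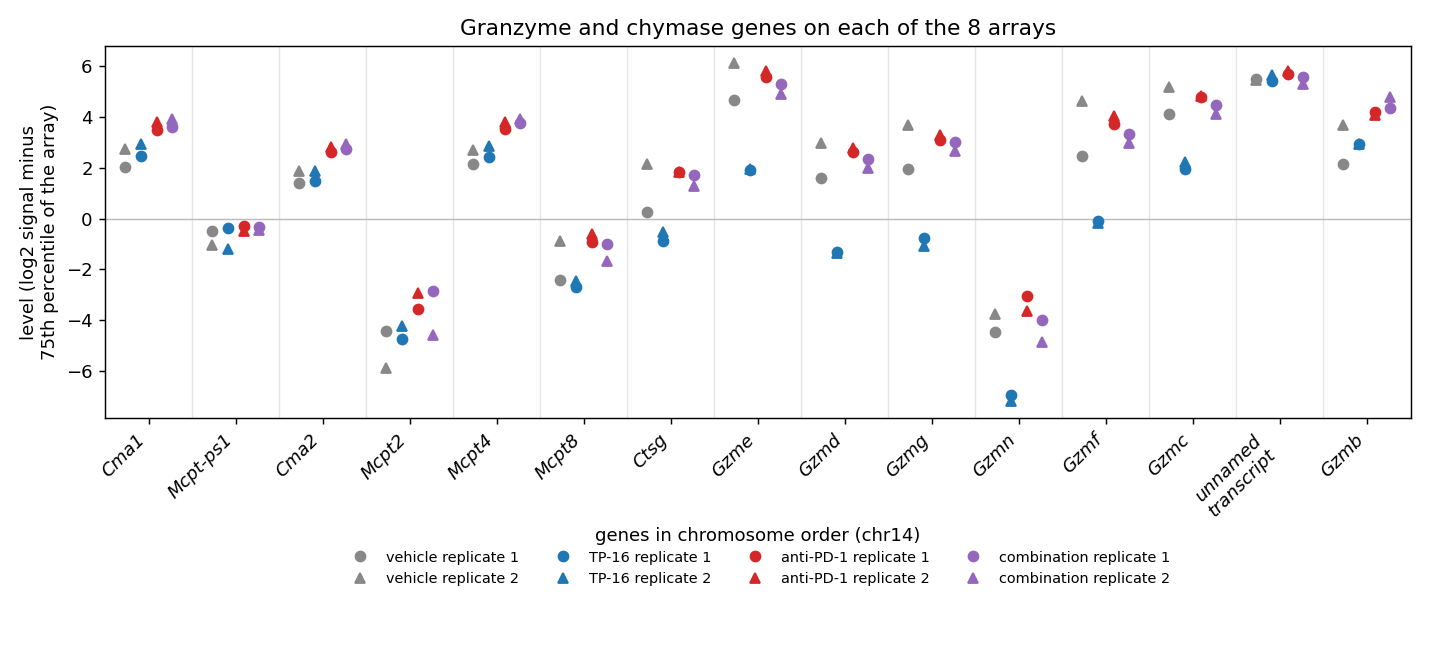
Level of each tested gene of the granzyme and chymase stretch on each of the 8 arrays, on the log2 scale relative to the 75th percentile of each array, with genes in chromosome order and 1 symbol per array. Both TP-16 arrays (blue) lie below the other 6 in 8 genes in a row, from Mcpt8 to Gzmc, as for Gzmg at -0.75 and -1.09, while at Mcpt4 and Gzmb they lie near the vehicle arrays.

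Since neighboring granzymes were low together, their promoters are shown. RefSeq (GRCm38.p6) held a promoter for 11 of the 15 genes and transcripts of the stretch. The 250 bases before the start of each were searched on both strands for the cAMP response element TGACGTCA, the site that CREB binds. It was found in Gzmc, Gzmf and Gzmg, beginning 57, 82 and 77 bases before the start, and in none of the other 8, Gzmb included. The 150 bases before the start are printed below for granzymes C to G, all on the minus strand, from chr14:56234658-56234807 (Gzmc), chr14:56132594-56132743 (Gzmd), chr14:56120626-56120775 (Gzme), chr14:56211408-56211557 (Gzmf) and chr14:56159580-56159729 (Gzmg). Capitals mark the 8 bases that follow the same letters, taagtaatg, in all 5, and in Gzmd and Gzme these 8 bases differ from the response element at 1 place each. The promoter of Gzmn, which lies between Gzmg and Gzmf and was also called lower, holds no response element, and the letters taagtaatg are absent from its last 150 bases.
Gzmc: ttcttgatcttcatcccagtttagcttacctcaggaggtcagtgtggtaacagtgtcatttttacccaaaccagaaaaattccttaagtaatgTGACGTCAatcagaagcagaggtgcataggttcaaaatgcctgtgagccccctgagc
Gzmd: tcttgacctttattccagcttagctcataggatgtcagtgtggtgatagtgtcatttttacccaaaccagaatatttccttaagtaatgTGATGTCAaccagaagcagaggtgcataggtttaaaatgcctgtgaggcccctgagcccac
Gzme: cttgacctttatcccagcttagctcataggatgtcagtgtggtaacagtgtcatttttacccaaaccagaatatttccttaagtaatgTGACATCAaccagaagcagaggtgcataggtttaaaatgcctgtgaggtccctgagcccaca
Gzmf: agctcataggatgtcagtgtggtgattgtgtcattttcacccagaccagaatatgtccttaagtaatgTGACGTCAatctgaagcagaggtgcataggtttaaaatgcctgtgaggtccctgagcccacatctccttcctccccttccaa
Gzmg: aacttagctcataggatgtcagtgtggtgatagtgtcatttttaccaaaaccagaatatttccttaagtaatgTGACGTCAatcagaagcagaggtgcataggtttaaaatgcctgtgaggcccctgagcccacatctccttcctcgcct
The response element was present in 508 of 32851 RefSeq promoters (1.55%) and in 340 of the 12400 tested genes with a promoter (2.74%). Among genes called lower under TP-16 it was in 3 of the 168 with a promoter (1.79%, of 305 genes), namely Gzmc, Gzmf and Gzmg. Among genes called higher it was in 1 of 29 (3.45%, of 51 genes). The RUNX motif ACCACA, named for factors that act in T cells and myeloid cells, was in 44 of the 168 promoters of genes called lower (26.2%). It was in 13.9% of those of all tested genes and in 13.8% of those called higher. In the same order, the AP-1 motif TGANTCA was in 14.3%, 6.15% and 0%, the interferon gamma motif TTCNNNGAA in 7.74%, 7.53% and 6.9%, and the shorter CREB motif TGACG in 16.7%, 27.6% and 20.7%. In the granzyme stretch, the RUNX motif was in the promoters of granzymes B to G, Ctsg, Mcpt4 and Mcpt8. It was absent from those of Cma1 and Gzmn. The genes of the stretch that hold it are counted among the 44. They are neighbors, some with promoters alike in sequence, and are not independent. These are matches of letters, with promoters missing for many genes, and factor binding was not measured.

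Of 16 cytotoxic granule and effector genes, 7 were called lower under TP-16 and 0 higher, beside 1.49% and 0.249% of all genes, with a median difference of -0.49 beside -0.053 over all genes tested. The list median was -0.99 without TP-16 replicate 1 and -0.72 without anti-PD-1 replicate 2. Besides granzymes B to G the called gene was perforin (Prf1), on chromosome 10, at 0.94 and 0.61 under TP-16 and 1.97 and 1.94 under anti-PD-1, a difference of -1.18 (SE 0.15, 2.27-fold lower, adjusted p = 0.371). The vehicle arrays were far apart, 1 near TP-16 (0.65) and 1 near anti-PD-1 (2.10). Granzyme A, encoded on chromosome 13, differed by -0.34 (5.13 and 5.15 against 5.75 and 5.21). Nkg7, a granule membrane protein of the same cells, differed by -0.023, and Ifng, the cytokine of activated T cells, by -0.51 (0.75 and 0.0042 against 1.09 and 0.70), with the groups overlapping.

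Of 15 genes of the T-cell receptor complex and its coreceptors, 0 were called and the median difference was 0.11. It ran from -0.18 to 0.26 over the alternatives, below 0 without TP-16 replicate 1 and without anti-PD-1 replicate 2. Lck, the kinase that starts T-cell receptor signaling, stood at 2.91 and 2.65 under TP-16 and 2.82 and 2.36 under anti-PD-1. Cd8a, the coreceptor of cytotoxic T cells, stood at 0.12 and -0.74 against -0.50 and -0.79. The groups overlapped in both genes. Cd247, the zeta chain of the receptor, was lower on both TP-16 arrays (1.38 and 1.29 against 1.81 and 1.76, adjusted p = 0.421) and short of the fold required. Of 9 NK cell receptors 1 was called, beside 1.49% of all genes called lower. It was Klrg1, a receptor of differentiated effector T and NK cells. Klrg1 stood at -1.35 and -1.04 against 0.36 and -0.35 (difference -1.20, SE 0.29, adjusted p = 0.421). A further Klrg1 probe gave -1.26. The Klrg1 call was lost without TP-16 replicate 1 (difference -1.05) and without anti-PD-1 replicate 1 (-0.85), and also under normexp and under the methods' t-test. Of 8 genes of regulatory T cells 0 were called, and Il2ra, the high-affinity interleukin 2 receptor chain, differed by -0.72 (adjusted p = 0.381), under the fold required.

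Among 13 inhibitory checkpoints and PD-1 ligands, 2 were called, both higher under TP-16, beside 0.249% of all genes called higher. The list median was -0.063, with 7 of 13 differences negative, and 0.031 after quantile normalization. Single arrays moved it between -0.2 (without anti-PD-1 replicate 2) and 0.11 (without TP-16 replicate 2). Btla, an inhibitory receptor of lymphocytes that binds HVEM, stood at -0.94 and -0.92 under TP-16 and -1.77 and -2.35 under anti-PD-1, a difference of 1.12 (SE 0.23, adjusted p = 0.419). A further Btla probe was called too, but it was below background on the anti-PD-1 arrays. Tox, a factor of exhausted T cells, stood at -1.08 and -1.59 against -2.46 and -2.40, 2.14-fold higher (SE 0.21 on the log2 scale, adjusted p = 0.419). Its 2 further probes gave 0.65, with anti-PD-1 below background, and 0.83, neither of them called. In both genes the vehicle arrays were the lowest and the combination arrays stood with TP-16. The Btla difference was 0.84 without anti-PD-1 replicate 2 and the Tox difference 0.84 without TP-16 replicate 1, each below a fold of 2. Both calls were also lost with normexp background correction (0.75 and 0.66) and with the methods' t-test, and that of Tox with the spread of all 8 arrays. The target of the antibody and its ligand were not called: Pdcd1, which encodes PD-1, differed by 0.37 (adjusted p = 0.47) and Cd274, which encodes PD-L1, by -0.47 (adjusted p = 0.523). Ctla4, a receptor that competes with CD28, differed by -0.87.

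Clec9a, a receptor for dead cells on type 1 dendritic cells, which present tumor antigens to CD8 T cells, stood at -1.15 and -1.51 under TP-16 and -2.41 and -3.48 under anti-PD-1, a difference of 1.62 (SE 0.41, 3.06-fold higher, adjusted p = 0.421). Its vehicle levels were -6.36 and -4.43 and its combination levels -1.31 and -0.31, so the anti-PD-1 arrays lay between vehicle and the 2 groups given TP-16. A further Clec9a probe gave 1.34 and was called. The Clec9a call was lost without TP-16 replicate 1 (difference 1.44), with normexp background correction (0.93), with the methods' t-test and with the spread of all 8 arrays. Xcr1, the chemokine receptor of the same cells, was called but was dim, below background on each anti-PD-1 array, and it has no fold. Its call was lost under normexp, where the difference was 0.22, and under the methods' t-test. Of 15 dendritic cell genes 2 were called, beside 0.249% of all genes called higher. Of these 2, Xcr1 passed the filter through the TP-16 arrays alone, which favors a call. Of the 15 genes, 13 had a positive difference, with a median of 0.15 (0.35 after quantile normalization). The median was 0.024 without anti-PD-1 replicate 2, and 0.30 without TP-16 replicate 2 or without anti-PD-1 replicate 1. Siglech, a marker of plasmacytoid dendritic cells, differed by -0.57 (adjusted p = 0.488).

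Of 11 genes of MHC class II presentation 2 were called, beside 0.249% of all genes called higher. Of these 2, H2-Ob passed the filter through the TP-16 arrays alone, which favors a call. Of the 11 genes, 10 had a positive difference, with a median of 0.23 (0.29 after quantile normalization). Single arrays moved this median, to 0.027 without TP-16 replicate 1, 0.017 without anti-PD-1 replicate 2, 0.47 without TP-16 replicate 2 and 0.44 without anti-PD-1 replicate 1. H2-Oa, a chain of the modulator of class II peptide loading, stood at -1.82 and -1.91 under TP-16 and -2.69 and -3.12 under anti-PD-1, a difference of 1.04 (SE 0.18, adjusted p = 0.398). It was 1.00 without TP-16 replicate 1 and 0.83 without anti-PD-1 replicate 2, neither of them called, and its call was also lost with normexp background correction and with the spread of all 8 arrays. H2-Ob, the partner chain, was below background under anti-PD-1 and was not called without TP-16 replicate 1 (1.1) or without anti-PD-1 replicate 2 (0.82). Under normexp H2-Ob differed by -0.19, and it was also uncalled with the spread of all 8 arrays and under the methods' t-test. Of 15 genes of MHC class I and peptide loading 0 were called, and their median of -0.13 became 0.079 after quantile normalization. It was -0.04 without anti-PD-1 replicate 1 and -0.22 without anti-PD-1 replicate 2. Of 27 interferon gamma response genes 0 were called, 23 differences were negative and the median was -0.34 (-0.27 after quantile normalization, and -0.11 without TP-16 replicate 2). Ido1, an interferon-induced enzyme that consumes tryptophan, had the widest gap, 0.97 and 0.67 under TP-16 against 1.65 and 1.67 under anti-PD-1 (difference -0.84, adjusted p = 0.395). The 24 type I interferon response genes held 0 calls.

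**Figure D2:**
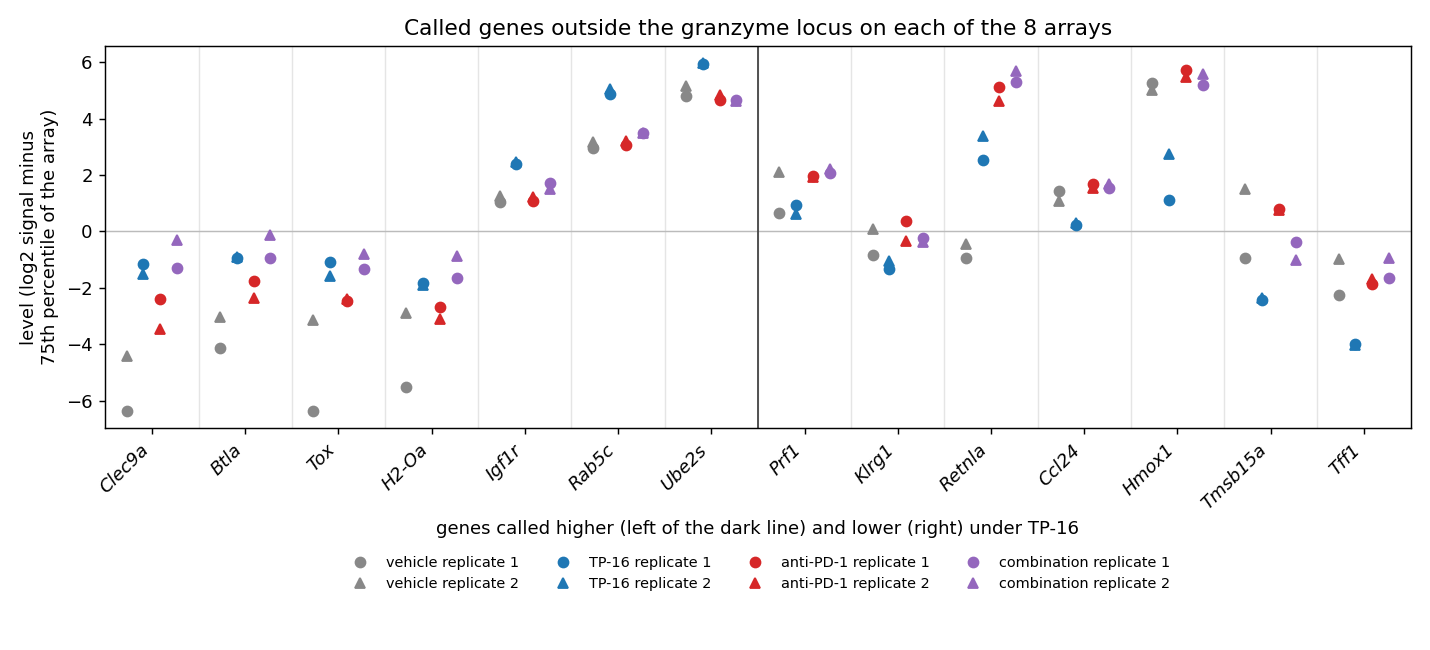
Level of 14 called genes outside the granzyme stretch on each of the 8 arrays, on the log2 scale relative to the 75th percentile of each array, with 1 symbol per array. Clec9a, Btla and Tox are lowest on the vehicle arrays and alike under TP-16 and the combination, while Rab5c and Ube2s are highest and Hmox1 and Tff1 lowest on the TP-16 arrays.

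Retnla, a gene that interleukin 4 induces in macrophages, stood at 2.53 and 3.38 under TP-16 and 5.11 and 4.64 under anti-PD-1, a difference of -1.92 (SE 0.36, 3.79-fold lower, adjusted p = 0.419). Its vehicle levels were -0.96 and -0.44 and its combination levels 5.30 and 5.69, so the TP-16 arrays lay between vehicle and the groups given antibody. The Retnla call was lost with the methods' t-test. Ccl24, a chemokine that attracts eosinophils, stood at 0.22 and 0.31 against 1.69 and 1.55, a difference of -1.35 (SE 0.12, adjusted p = 0.277), and the TP-16 arrays were the lowest of the 8. They were the 2 calls among 14 M2 markers, both lower, beside 1.49% of all genes called lower. The median of the 14 was -0.23, and -0.078 without anti-PD-1 replicate 1, -0.12 without TP-16 replicate 1 and -0.37 without anti-PD-1 replicate 2. Mrc1, the mannose receptor, differed by 0.052. Of 15 macrophage genes 0 were called, and of 11 M1 genes 0 were called. Il6, an inflammatory cytokine, differed by -0.70 (adjusted p = 0.395) and Tnf by -0.19.

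Of 14 neutrophil genes 2 were called lower, beside 1.49% of all genes, with a median of -0.45. Camp, the antimicrobial peptide cathelicidin, differed by -1.38 (adjusted p = 0.437) and Cxcr2, the chemokine receptor that draws neutrophils, by -1.32 (adjusted p = 0.423). The Camp call was lost without TP-16 replicate 2 (-0.95) and without anti-PD-1 replicate 1 (-0.97), and the Cxcr2 call without TP-16 replicate 2 (-0.84), anti-PD-1 replicate 1 (-1.20) or anti-PD-1 replicate 2 (-1.44). Both calls were also lost under normexp and under the methods' t-test. Csf3r, the receptor for G-CSF, differed by -0.19, and Ly6g was below background in both groups. Of 9 mast cell and eosinophil genes 2 were called lower, beside 1.49% of all genes, Mcpt4 and Il5ra, the interleukin 5 receptor of eosinophils. Il5ra was at least 1.77-fold lower, since it was below background under TP-16, and it was uncalled with normexp. It passed the filter through the anti-PD-1 arrays alone, which favors a call. All 9 differences were negative, with a median of -0.95 (-0.93 after quantile normalization), the lowest of the 37 lists. The median level of the 9 genes was -1.30 and -0.94 under TP-16, -0.21 and -0.11 under anti-PD-1, -1.10 and -0.99 under vehicle, and 0.015 and -0.078 under the combination. This median was low in the vehicle and TP-16 samples and high in both groups given antibody, while Il5ra ran otherwise, with vehicle (-3.88 and -3.48) near anti-PD-1 (-3.87 and -3.96) and above the combination (-4.33 and -4.29). The eosinophil granule genes Prg2 and Epx were below background in both groups. What part these cells had in the lower protease levels was not tested.

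Genes of the pathway that TP-16 targets were compared next. Of 14 genes of prostaglandin E2 synthesis, breakdown and reception, 1 was called, Ptgfr, the receptor for prostaglandin F2 alpha (difference -1.47, SE 0.15, adjusted p = 0.302), beside 1.49% of all genes called lower, with a list median of -0.077. Ptgfr was above background on 1 of the 2 TP-16 arrays, and its call was lost with normexp background correction (-0.79). Ptger4, which encodes EP4, stood at 0.78 and 0.19 under TP-16 and 0.71 and 0.28 under anti-PD-1, with a difference of -0.012. Ptgs2, which encodes the inducible cyclooxygenase, stood at 2.50 and 2.28 against 2.45 and 2.89, and Ptger2, which encodes EP2, differed by 0.25. The groups overlapped for Ptger4 and Ptgs2. All 4 probes of Ptger3, the EP3 gene, were below background on the 4 arrays. Of 20 early response genes of cAMP and CREB 0 were called and the median was -0.11, and -0.053 without TP-16 replicate 2 and -0.031 without anti-PD-1 replicate 1. Per1, a clock gene that CREB induces, had the largest positive difference, at 0.79 (adjusted p = 0.398), and Thbd, the thrombomodulin gene, the largest negative, at -0.73 (adjusted p = 0.419).

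Among genes well above background on all 4 arrays, the called gene with the largest rise was Rab5c, a GTPase of early endosomes (mm9 chr11:100576699-100576758). It stood at 4.88 and 5.05 under TP-16 and 3.05 and 3.20 under anti-PD-1, a difference of 1.84 (SE 0.13, 3.58-fold higher, adjusted p = 0.167). The vehicle arrays (2.96 and 3.16) and the combination arrays (3.49 and 3.48) stood with anti-PD-1, so TP-16 alone was high. Ube2s, an enzyme that extends ubiquitin chains for the anaphase-promoting complex, stood at 5.95 and 5.96 against 4.67 and 4.82, a difference of 1.21 (SE 0.11, adjusted p = 0.285), and its other probe gave 1.47. Igf1r, the receptor for insulin-like growth factor 1, stood at 2.38 and 2.46 against 1.08 and 1.23, a difference of 1.26 (SE 0.12, adjusted p = 0.285). Its 3 other probes gave 0.80, 0.55 (with anti-PD-1 below background) and -0.052, none of them called. Npm3, a nucleolar histone chaperone, was 1.60 higher, Prr7, a membrane adaptor, 1.44 higher, and Cmtm4, a membrane protein that keeps PD-L1 at the cell surface, 1.25 higher. These 6 genes were called with each array left out. Tlr11, a receptor for microbial profilin, was 1.24 higher, and 0.38 with normexp background correction. Camk2a, a calmodulin-dependent kinase, was 1.21 higher by 1 probe while another differed by -0.048, and without TP-16 replicate 1 it was not called (0.94), nor with normexp. Septin3, a cytoskeletal GTPase, was 1.30 higher, and was not called without TP-16 replicate 1 (1.36), TP-16 replicate 2 (1.24) or anti-PD-1 replicate 2 (0.88), nor with normexp or the methods' t-test.

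Hmox1, heme oxygenase 1, which breaks down heme and is induced by oxidative stress, had a large fall with spread replicates. It stood at 1.11 and 2.74 under TP-16 and 5.74 and 5.47 under anti-PD-1, a difference of -3.68 (SE 0.60, 12.8-fold lower, adjusted p = 0.388). The vehicle arrays were at 5.27 and 5.02 and the combination arrays at 5.20 and 5.58, so TP-16 alone was low, and the difference without TP-16 replicate 1 was -2.87. Tmsb15a, a thymosin that binds actin monomers, stood at -2.43 and -2.35 against 0.80 and 0.76, a difference of -3.17 (SE 0.10, adjusted p = 0.0523). Tff1, a trefoil peptide of mucosal surfaces, stood at -3.99 and -4.03 against -1.86 and -1.69, a difference of -2.24 (SE 0.12, adjusted p = 0.0696). In both, the TP-16 arrays were the lowest of the 8, and Tff1, a dim probe, differed by -1.22 with normexp background correction. Reg3g, an antibacterial lectin of the gut, was lower under TP-16 by a difference of -2.67 (adjusted p = 0.285), and by -1.57 with normexp. Reg1, a secreted lectin of the pancreas, was lower by -2.77 (adjusted p = 0.429), at -1.79 and -4.01 under TP-16 and 0.04 and -0.31 under anti-PD-1. Its vehicle arrays (-1.61 and -2.30) lay near TP-16 replicate 1 and its combination arrays (-0.16 and -0.51) near anti-PD-1. Reg1 was not called without anti-PD-1 replicate 1 (-2.59) or without anti-PD-1 replicate 2 (-2.94), nor with the methods' t-test. Its difference was -3.88 without TP-16 replicate 1 and -1.65 without TP-16 replicate 2. Of 14 exocrine pancreas genes 6 were tested, and Reg1 was the 1 called, beside 1.49% of all genes called lower. Speer2, a gene expressed in testis, was lower by a difference of -2.27, and by -1.20 with normexp, and was called with each array left out.

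Calls in stromal and tissue lists are given beside the 1.49% of all genes called lower and 0.249% called higher. Of 12 fibroblast genes 1 was called, Lum, a collagen-binding proteoglycan (difference -1.34, adjusted p = 0.429), which was not called without TP-16 replicate 2 (-0.85) or anti-PD-1 replicate 1 (-1.12). Of 28 collagen genes 3 were called lower. Col12a1, a collagen that decorates fibrils, differed by -1.08 (adjusted p = 0.293) and Col5a2, a fibrillar collagen, by -1.11 (adjusted p = 0.446). A further Col12a1 probe gave -0.85 and a further Col5a2 probe -1.79, neither of them called. Col23a1, a membrane collagen, was at least 2.79-fold lower, and with normexp it differed by -0.75. It passed the filter through the anti-PD-1 arrays alone, which favors a call. The collagen median was -0.22, and -0.0043 after quantile normalization, under which Col5a2 was not called. The collagen median was also moved by single arrays, to -0.58 without TP-16 replicate 1, -0.003 without TP-16 replicate 2 and -0.35 without anti-PD-1 replicate 2. Col5a2 also lost its call without TP-16 replicate 2 (-0.64), anti-PD-1 replicate 1 (-0.95) or anti-PD-1 replicate 2 (-1.28), and Col23a1 without TP-16 replicate 2 (-1.65). Of 11 adipose tissue genes 2 were called, Cidec, a protein of lipid droplets (-1.12, adjusted p = 0.419), and Retn, the resistin gene (-1.11, adjusted p = 0.442), with a list median of -0.63 (-0.39 after quantile normalization). Cidec was -0.84 without TP-16 replicate 1, and Retn lost its call without TP-16 replicate 1 (-0.91), TP-16 replicate 2 (-1.31) or anti-PD-1 replicate 1 (-0.66). Retn was also uncalled after quantile normalization, with the authors' log2 values and with normexp background correction. Its call was lost as well with the replicate block, the spread of all 8 arrays and the methods' t-test. With normexp the calls of Cidec, C9, Col5a2, Col12a1 and Col23a1 were lost too, and with the methods' t-test those of Cidec, C9, Lum, Col5a2 and Col23a1. Of 27 complement and coagulation genes C9, a pore-forming complement protein, was called (-1.73, adjusted p = 0.446). It was above background on 1 of the 2 TP-16 arrays. C9 lost its call without TP-16 replicate 2 (-0.93), anti-PD-1 replicate 1 (-1.57) or anti-PD-1 replicate 2 (-1.88). Among 45 chemokines and receptors the calls were Xcr1, Ccl24 and Cxcr2, and among 50 interleukins and receptors Il5ra. Xcr1 and Il5ra passed the filter through 1 group alone, which favors a call. There were 0 calls among 37 TNF superfamily genes, 19 metalloproteinase genes, 15 endothelial genes, 9 epidermis genes, 18 skeletal muscle genes, 8 B and plasma cell genes and 7 red blood cell genes. The colon epithelium list had 0 calls among 7 tested genes.

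**Figure D3:**
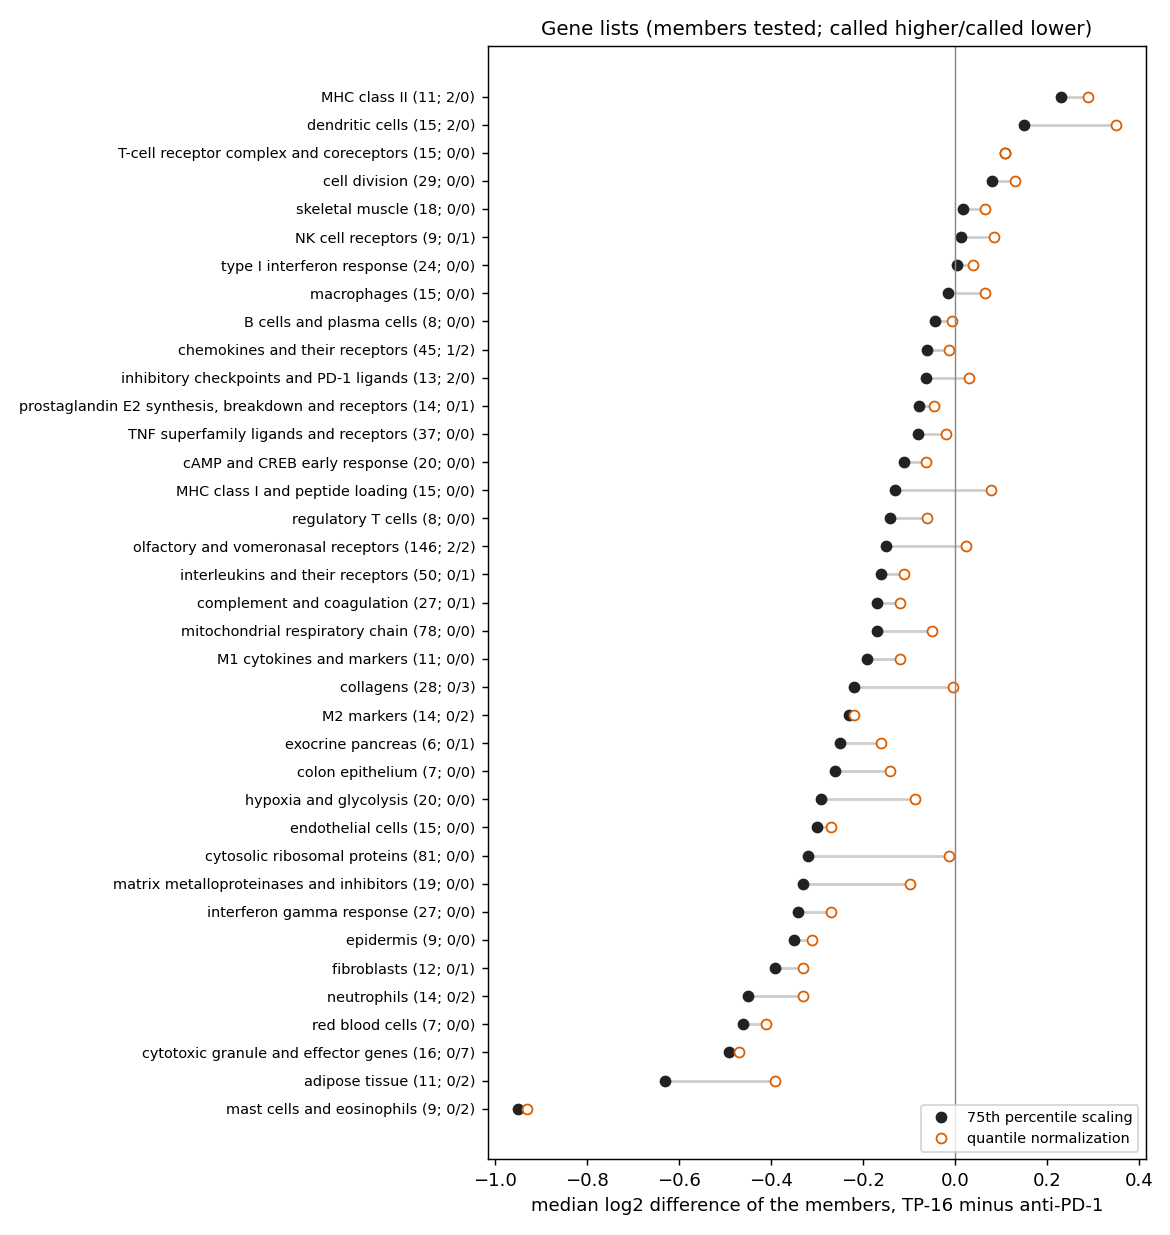
Median log2 difference (TP-16 minus anti-PD-1) of the tested members of each of 37 gene lists under the main scaling (filled) and after quantile normalization (open), with the members tested and called beside each name. Under the main scaling medians run from -0.95 for mast cells and eosinophils to 0.23 for MHC class II, and ribosomal proteins move from -0.32 to -0.013 with the scaling.

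Medians of some lists of abundant genes depended on the scaling. All 81 tested genes of cytosolic ribosomal proteins had a negative difference, with a median of -0.32, which was -0.013 after quantile normalization, and 0 were called. The 78 genes of the mitochondrial respiratory chain had a median of -0.17 (-0.05 after quantile normalization, and -0.092 and -0.26 without TP-16 replicate 1 and 2) and 0 calls. Of 29 cell division genes 0 were called, 20 differences were positive and the median was 0.081. Of 20 hypoxia and glycolysis genes 0 were called, and the median of -0.29 was -0.086 after quantile normalization and -0.13 without TP-16 replicate 1. Pgk1, a glycolytic kinase, differed by -0.42 under the main scaling. The olfactory and vomeronasal receptors, genes of sensory neurons, gave 146 tested of 1368 genes, with a median of -0.15 (0.024 after quantile normalization). Of the 146, 2 were called higher and 2 lower, beside 0.249% and 1.49% of all genes. Their called members included Olfr222, below background under TP-16 and at -3.22 and -3.30 under anti-PD-1. It passed the filter through the anti-PD-1 arrays alone. Olfr780 and Olfr874, both called higher, passed through the TP-16 arrays alone. Such passage favors a call.

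Some called probes shared a sequence feature, seen after their values. The probes named for Pak4, Itsn1 and Ms4a4c, among the 15 largest rises, hold runs of GT repeats (38, 28 and 29 bases). All 3 were close to the p threshold, and each was uncalled without TP-16 replicate 2 and without anti-PD-1 replicate 2, at differences from 0.72 to 0.86. Each also lost its call with the replicate block, the spread of all 8 arrays, no filter on dim probes and the methods' t-test. The probe of Mlip, among the 15 largest falls (-2.24), holds a CA run of 21 bases, and those of Acot3 (-2.19) and Pgbd1 (-2.18) hold CA runs of 11 and 13 bases. These 3 were uncalled without either anti-PD-1 array (-2.35 to -2.06). Of 42 tested probes with a CA run of at least 16 bases, 22 were called, all lower under TP-16 (52.4%), with a median difference of -1.78. Of 71 probes with a GT run, 3 were called, all higher, with a median of 1.21. The median level of the CA probes was 2.28 and 0.71 under TP-16, 2.90 and 3.67 under anti-PD-1, 4.60 and 1.76 under vehicle and 2.34 and 0.78 under the combination. The GT probes ran the other way, at 5.33 and 6.38 under TP-16 and 5.03 and 4.25 under anti-PD-1. Replicates of the vehicle group lay farther apart in both sets than TP-16 and anti-PD-1 did on average. Among the 30308 probes with neither run 455 were called (1.5%), of which 19.6% were higher. A further Mlip probe gave -0.35 and was not called. Further Itsn1 probes gave 0.43, 0.32, 0.18, -0.039 and -0.27, none of them called. What the signals of the probes with runs measure was not tested, and the symbols of these 6 probes are given as the annotation has them.

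**Figure D4:**
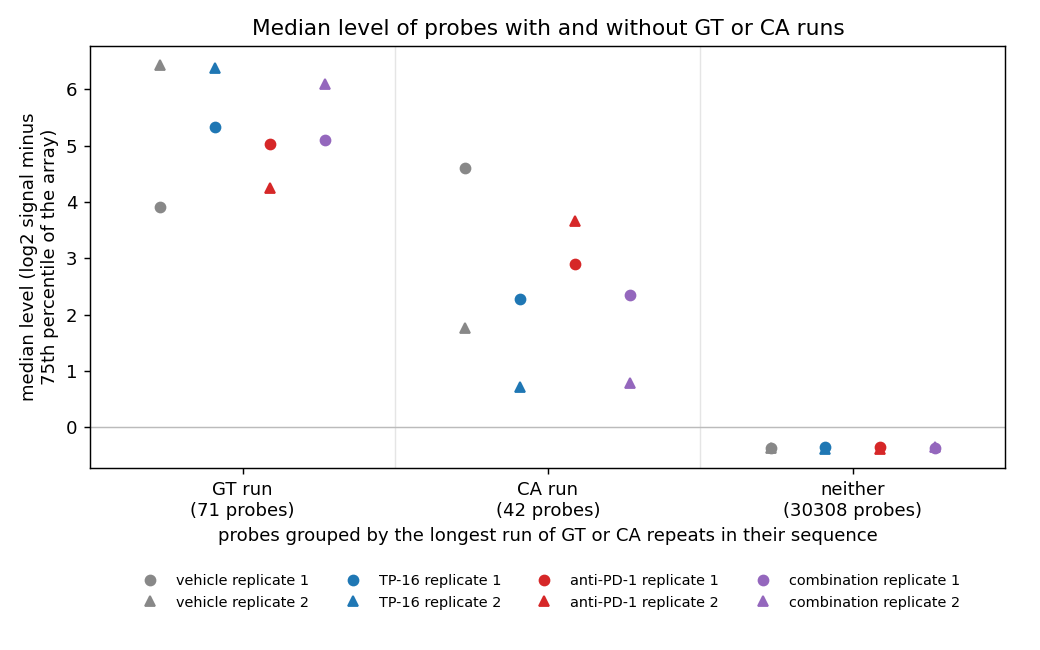
Median level of tested probes with a GT run, a CA run or neither, on each of the 8 arrays, on the log2 scale relative to the 75th percentile of each array. CA probes are higher on both anti-PD-1 arrays (2.90 and 3.67) than on the TP-16 arrays (2.28 and 0.71), GT probes are lower, and the other probes are level.

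The arrays outside the test were set beside the called genes. Of 218 called genes well above background on all 4 arrays, the vehicle mean lay nearer to anti-PD-1 than to TP-16 in 162 (74.3%), and the combination mean in 92 (42.2%). After quantile normalization these were 164 of 211 (77.7%) and 78 of 211 (37%). Both TP-16 arrays lay below all 6 others in 60 of these genes, among them Gzmc, Gzmd, Gzme, Gzmf, Gzmg, Hmox1, Tmsb15a and Tff1, and above all 6 in 11, among them Rab5c, Npm3, Igf1r and Ube2s. Both anti-PD-1 arrays lay above all 6 others in 31. Over all 20509 genes tested, both TP-16 arrays lay below all 6 others in 724 and above them in 637, both anti-PD-1 arrays above in 373, and both vehicle arrays above in 5352. The values are a description of the arrays, without a test.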

How the data were processed

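The authors deposited, per array, scanner intensities that Agilent Feature Extraction 10.7.1.1 had background-subtracted and detrended (version per the submitters' processing notes), and a table of log2 values that the authors normalized. The methods attribute it to GeneSpring but do not say how values were normalized, and its values have the same distribution on each array. The methods give TRIzol for RNA extraction and the sample labels a column kit. The deposited intensities were used without control spots and without 38 probes marked as outliers, and replicate spots were averaged. The level used was the log2 intensity relative to the 75th percentile of its array. Probes for which both TP-16 arrays, or both anti-PD-1 arrays, were well above background were fitted in limma 3.58.1 (R 4.3.3) on the 4 arrays alone, with empirical Bayes moderation, and p-values were adjusted by Benjamini-Hochberg over all 30421 probes. The 4 arrays leave 2 residual degrees of freedom, and their number limits the precision. An exact permutation test of 2 arrays against 2 cannot give a p below 0.333.

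A gene was given by its probe with the highest mean over the 4 arrays. Gene names came from RefSeq for 32971 probes (58.3%) and from the array annotation for the others, and positions of probes (mm9) also came from the annotation. Where 1 group was below background on both arrays, the fold is a lower bound against the dimmest level called well above background on those arrays. The genes named are the 15 largest rises and 15 largest falls past the threshold with all 4 arrays well above background and no overlap, the called members (at most 6) and the most abundant member of each of 37 gene lists, the genes the paper names for CT26 tumors, and the 5 largest bounds in each direction, of which some are not given as folds (groups overlapping, no call, or bright arrays far apart). The members and lists were chosen with earlier results of these data known. Levels were varied by quantile normalization, by subtracting the median, by normexp (offset 50) and by taking the authors' log2 values. Probes were varied by dropping the filter, by requiring all 4 arrays above background and by taking 1 probe per gene. The fit was varied by a replicate block, a spread shared with the other 4 arrays or the other 2 treated arrays, trended and robust moderation and the methods' t-test. A fold of 1.5 was also tried, and each array was left out in turn. Leaving out probes that hold a GT or CA run was added after the values were seen. The calculations were tested on simulated data. Other software was statmod 1.5.0, data.table (version 1.17.8), Python 3.11.15, pandas 2.3.3, numpy 2.4.6 and matplotlib 3.10.9.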

Additional observations from a re-analysis of the deposited data

How the results depend on the processing

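The 480 probes called at the unadjusted threshold became 1998 with no filter on dim probes, 171 with the methods' t-test, 1361 with a fold of 1.5 and 533 to 1361 with each array left out, and stayed within 1.5 times under the other alternatives. The share higher under TP-16 (19.2%) was 45.6% after quantile normalization, 43.6% with the authors' log2 values, 28.4% with normexp, 11.7% with no filter, 13.8% with 1 probe per gene, 24.4% with trended and robust moderation, 29.2% with a fold of 1.5 and 17% to 40.3% with each array left out, and was below 50% in all of them. The 0 probes at adjusted p became 2 after quantile normalization, 19 with the median subtracted, 7 with normexp, 4 with probes above background on all 4 arrays, 13 with 1 probe per gene, 12 with the authors' values, 6 with the spread of 8 arrays, 14 with that of the 6 treated arrays, 8 with trended and robust moderation and 12 without probes that hold a GT or CA run, an alternative chosen after seeing the data. It was 0 with each array left out, where 1 group has 1 array, assumed to vary like the pair. With the replicate block it was 0, with 561 probes at the unadjusted threshold (16.9% higher) and a smallest adjusted p of 0.285. The cause of these shifts was not tested. The sign of H2-Ob (-0.19) and of Olfr780 (-0.052) turned with normexp, both dim probes. Of 54 named genes that were called, 27 were called with each array left out and 21 under each alternative that could be run on them. List medians changed sign under at least 1 alternative in 13 of 37 lists. Signal over background limits the dim probes, since 51.4% to 55.7% of probes were well above it on these arrays.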

Other observations

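A set of probes was bright in 1 treatment and below background in the other. In 86 probes the 2 anti-PD-1 arrays were well above background and the 2 TP-16 arrays were not, and 81 of these were called. The opposite held for 881 probes, of which 48 were called. Passing the filter through 1 group alone favors such calls. The TP-16 arrays also had the stronger signal (75th percentile 530.2 and 550.8 against 398 and 414.9). What part this had in the counts of 86 and 881 probes was not tested. Efcab13 was called lower under TP-16, and with its anti-PD-1 arrays far apart (-2.07 and -0.64) no fold is given. A probe of E2f6, a repressor of the E2F family, was at least 7.73-fold lower (its other probe differed by 0.023) and Fcrl6, a receptor of cytotoxic lymphocytes, at least 5.36-fold. A probe of Smyd4 was at least 6.52-fold lower, and Rhox2h, a homeobox gene of the reproductive tract, at least 5.5-fold. The Smyd4 probe was not the brightest tested probe of its gene, and with normexp it differed by -1.34. In the other direction a probe of Trappc9, a subunit of a vesicle tethering complex, was called and at least 2-fold higher under TP-16. Lrriq3, Zfyve28 and Serpina3j were above background on both TP-16 arrays, but 1 array carried the signal and the groups overlapped, as for Lrriq3 at -0.38 and -4.76 against -4.56 and -4.54, so no bound is given.

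Epidermis genes set replicates apart rather than treatments. Their median level was 2.25 on TP-16 replicate 2 and 2.49 on anti-PD-1 replicate 2, against -1.10 and -0.35 on the first replicates of these groups. The other 4 arrays lay between -1.52 and -0.15. Red blood cell genes, Hba-a1 among them, were highest on the vehicle arrays (6.05 and 5.12), and stood at 3.62 and 3.36 under TP-16 and 3.87 and 4.02 under anti-PD-1.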
